A study of Mus musculus with 6 samples.

Results

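The platelet-derived growth factor (PDGF) family was followed in mouse heart tissue after myocardial infarction (MI) through its 6 genes, the ligand genes *Pdgfa*, *Pdgfb*, *Pdgfc* and *Pdgfd* and the receptor genes *Pdgfra* and *Pdgfrb*. The genes were chosen by family membership, without use of their measured values, and all 6 were found among the 17441 genes that the 6 libraries list. Poly(A) RNA came from heart tissue taken below the ligature in male mice, which the labels give as 12 weeks old, at day 3 after surgery, with 2 libraries per group. The groups were wild-type mice with a sham operation (WT sham), wild-type mice with the left anterior descending coronary artery tied (WT MI), and mice labelled *Card9* knockout with the same ligation (*Card9* KO MI), all on a C57BL/6 background. How the knockout allele was made is not given in the sources used here. *Card9* encodes an adapter of innate immune signaling, and the comparison of the infarct groups asked how its loss alters the infarcted heart. No sham-operated knockout group was analysed here. *Card9* KO MI and WT sham therefore differ in both genotype and infarction, which cannot be told apart. The labels do not say whether a library came from 1 heart or from pooled hearts, and the p-values measure only the spread between these libraries.

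PDGF ligands are secreted dimers that bind tyrosine kinase receptors on neighbouring cells. PDGF-AA, PDGF-AB and PDGF-CC act mainly through the alpha receptor, PDGF-DD mainly through the beta receptor, and PDGF-BB through both, whereupon the paired receptors phosphorylate each other and recruit Ras, PI3 kinase, phospholipase C gamma and STAT signaling. In the heart the alpha receptor is a common marker of fibroblasts, the beta receptor of pericytes and other mural cells of vessels, and endothelial cells and platelets are well-known sources of PDGF-B. In bulk tissue such as this, fewer cells of a type and less RNA per cell cannot be told apart.

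Each value is an FPKM, a count of sequenced fragments scaled to the length of the gene and the size of the library, so levels may be compared between genes per unit length. Fragment counts were not analysed here. From the steps between low FPKM values the libraries held an estimated 3018000 to 4302000 fragments, and 3 fragments from 2 kb of transcript would then give an FPKM of 0.349 to 0.497. The 10 most abundant genes held 16.1% and 16.4% of all FPKM of the WT sham libraries but 9.0% to 10.6% of the infarct libraries, which moves the share left for all other genes. The FPKM of the targeted gene, *Card9*, was 0.99 and 1.03 (WT sham), 3.39 and 5.08 (WT MI) and 9.85 and 6.94 (*Card9* KO MI), so it was not reduced under the knockout label. The deposited value covers the gene as a whole and leaves out which exons were read. Every direction given for that group therefore rests on its label. Heart muscle markers were abundant in all libraries, with the ventricular myosin gene *Myl2* between 4222 and 11442.

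The PDGF genes lay at widely different levels, in a similar order in the 3 groups. *Pdgfb* and *Pdgfrb* were highest in WT sham, with mean FPKM of 21.5 and 21.1 and overlapping libraries, followed by *Pdgfa* at 8.21 and *Pdgfra* at 7.7, which overlapped as well, then *Pdgfd* at 4.53 and *Pdgfc* at 1.0. In WT MI the order was *Pdgfrb*, *Pdgfb*, *Pdgfa*, *Pdgfra*, *Pdgfd* and *Pdgfc*, and only *Pdgfa* and *Pdgfra* overlapped. In *Card9* KO MI the same order held, and only *Pdgfd* and *Pdgfc* overlapped. *Pdgfrb* lay above 79.3% to 89.9% of the genes listed in its library, and *Pdgfc* above 17.7% to 37.5%.

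**Figure D1:**
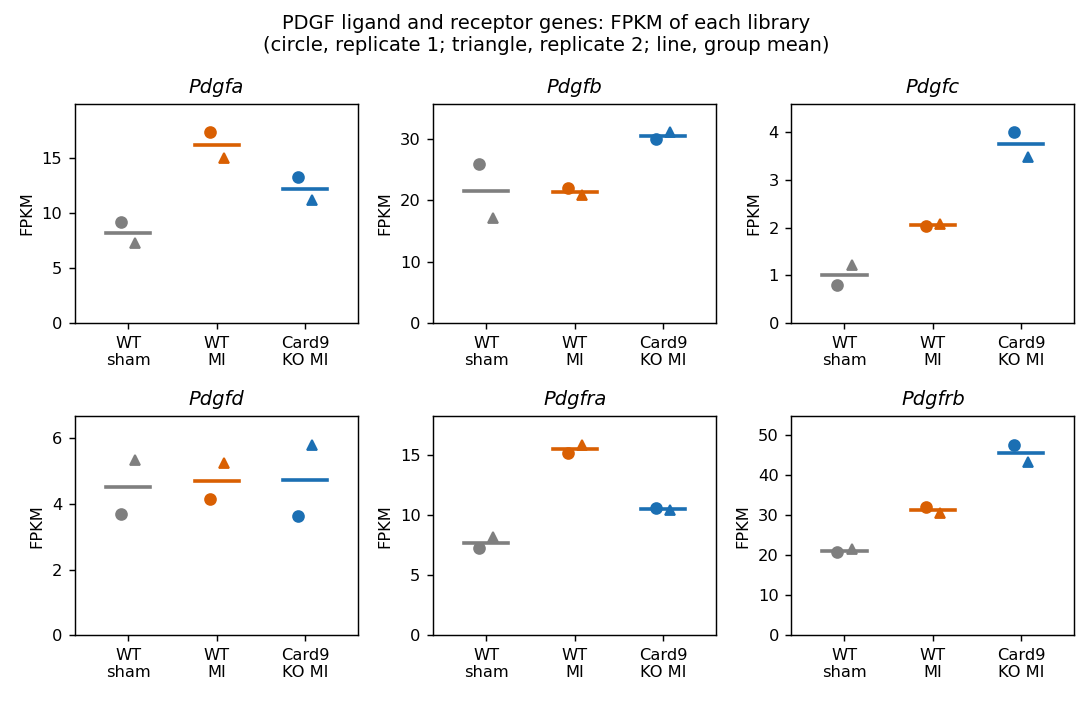
FPKM of the 6 PDGF genes (vertical axes, linear and starting at 0, a scale for each gene) in the 3 groups, with a circle for replicate 1, a triangle for replicate 2 and a line at the group mean. *Pdgfra* is highest in WT MI at 15.2 and 15.87, whereas *Pdgfrb* is highest in the libraries labelled *Card9* KO MI at 47.48 and 43.13.

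Differences were tested with limma on log2(FPKM + 1) over 13120 genes that reached an FPKM of 1 in 2 or more libraries, with the 3 groups in one fit. An adjusted p (Benjamini-Hochberg, over all genes tested) below 0.05 was taken as a call, and all 6 PDGF genes passed the filter. The added 1 makes these fold changes smaller than the ratio of FPKM, most of all for the low gene *Pdgfc*. An exact permutation test of 2 libraries against 2 cannot give a p below 0.333, so none is given for single values or ratios.

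*Pdgfa* encodes the A chain, a ligand of the alpha receptor (NCBI gene 18590; mm9 chromosome 5, 139451968 to 139473324, minus strand). Its FPKM was 9.16 and 7.25 (WT sham), 17.3 and 14.99 (WT MI) and 13.23 and 11.13 (*Card9* KO MI). No group overlapped another, with WT MI highest and WT sham lowest. *Pdgfa* rose in WT MI over WT sham (1.97-fold in mean FPKM, log2 fold change 0.90, standard error 0.16, adjusted p = 0.0039 by limma). *Card9* KO MI lay 24.6% below WT MI, a difference that missed the threshold (log2 fold change −0.38, 95% confidence interval −0.75 to −0.01, adjusted p = 0.24 by limma). *Card9* KO MI was 1.48-fold above WT sham (a log2 difference of 0.52, adjusted p = 0.028 by limma), a call that was lost without WT sham replicate 2 (0.14) or without *Card9* KO MI replicate 1 (0.16), and with upper-quartile scaling (0.16), quantile normalization (0.31) or scaling without the 100 most abundant genes (0.087). In the mm9 annotation, *Pdgfa* overlaps 2 genes of the opposite strand, *Gm17247* over 489 bases and *6330403L08Rik* over 2315, and reads of such pairs cannot be told apart without strand.

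*Pdgfb* encodes the B chain, which binds both receptors (NCBI gene 18591; mm9 chromosome 15, 79826330 to 79845238, minus strand). Its FPKM was 25.85 and 17.09 (WT sham), 21.96 and 20.79 (WT MI) and 29.86 and 31.02 (*Card9* KO MI). The WT sham libraries lay on either side of the WT MI libraries, whereas both *Card9* KO MI libraries stood above all others. WT MI against WT sham gave a log2 fold change of 0.02 (95% confidence interval −0.39 to 0.43, adjusted p = 0.94 by limma), which does not show equal levels, since the sham libraries differed 1.51-fold. An estimated 238 and 151 fragments lie behind those sham values, with a counting error of 6.48% and 8.15%. The growth-factor immediate early genes *Fos*, *Junb* and *Ier2* were also higher in WT sham replicate 1 than in replicate 2, at 22.65 against 12.2, 32.2 against 16.17 and 27.86 against 11.63. Of the same list, *Klf6* (16.35 against 20.3), *Fosl2* (7.27 against 8.14), *Egr2* (0.63 against 0.66) and *Fosl1* (0.56 against 0.58) were lower, and the rest were higher. The part of these genes in the *Pdgfb* value was not tested.

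In *Card9* KO MI, *Pdgfb* was 1.42-fold higher than in WT MI without passing the threshold (log2 fold change 0.49, 95% confidence interval 0.08 to 0.90, adjusted p = 0.18 by limma). Against WT sham it was called higher (log2 fold change 0.51, adjusted p = 0.045 by limma). That call held without WT sham replicate 1 (log2 fold change 0.80). It was lost without WT sham replicate 2 (log2 fold change 0.23), *Card9* KO MI replicate 1 (0.54) or *Card9* KO MI replicate 2 (0.49). Under the 3 other scalings it was lost as well (adjusted p of 0.14 to 0.24 by limma). The same held with no filter (0.085), only the 2 groups compared (0.071) or no trend in the fit (0.077). Endothelial markers, a list of 10 genes for cells well known to make PDGF-B, had a summed FPKM of 484 and 467 (WT sham), 531 and 534 (WT MI) and 593 and 593 (*Card9* KO MI). None of the 10 was called by limma between the infarct groups, and 4 rose and 1 fell in WT MI over WT sham; with WT sham replicate 2, WT MI replicate 1 or WT MI replicate 2 left out, 0, 0 and 1 rose. Under upper-quartile scaling and quantile normalization 0 of the 10 rose and 3 fell. Of all genes tested, limma called 27.7% higher and 9.39% lower in WT MI over WT sham, and 1.40% in either direction between the infarct groups. Of 9 platelet and megakaryocyte markers 5 could be tested and 2 rose in WT MI, *Pf4* and *Ppbp*, with summed FPKM of 13.7 and 19.3 (WT sham), 118 and 131 (WT MI) and 127 and 89.9 (*Card9* KO MI). *Pf4*, which macrophages also express, made up most of that sum. Of the other platelet genes, *Gp1ba* reached an FPKM of 2.42 and *Gp1bb* 1.77 in at least 1 library, *Gp5*, *Gp9* and *Treml1* were at or below 1.29 in each, and *Gp6* was listed in none. *Itga2b* was at 0.27 and 0.19 (WT sham), 0.79 and 1.18 (WT MI) and 0.6 and 0.42 (*Card9* KO MI) and was too low to be tested. The part of either cell type in the *Pdgfb* values was not tested.

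*Pdgfc* encodes a ligand of the alpha receptor that is secreted inactive and needs cleavage of its CUB domain (NCBI gene 54635; mm9 chromosome 3, 80840338 to 81017962, plus strand). Its FPKM was 0.80 and 1.21 (WT sham), 2.03 and 2.08 (WT MI) and 4.0 and 3.49 (*Card9* KO MI). The groups did not overlap, and WT MI lay between WT sham and *Card9* KO MI. The sham values rest on an estimated 8.9 and 12.9 fragments, with a counting error of 33.5% and 27.9%, and the *Card9* KO MI values on 60.6 and 50.6. WT MI was called above WT sham (2.04-fold in mean FPKM, a log2 difference of 0.62 with a standard error of 0.20, adjusted p = 0.046 by limma), but the adjusted p was 0.18 and 0.055 without WT sham replicate 1 or 2, 0.14 and 0.15 without WT MI replicate 1 or 2, 0.097 with upper-quartile scaling, 0.34 with quantile normalization and 0.078 with scaling without the 100 most abundant genes. The call of WT MI was also lost with a pseudocount of 5 (adjusted p = 0.065 by limma), no filter (0.062), only the 2 groups compared (0.071) or a replicate block (0.064). *Card9* KO MI lay 1.82-fold above WT MI (log2 fold change 0.63, 95% confidence interval 0.16 to 1.10, adjusted p = 0.15 by limma, not called). From WT sham to *Card9* KO MI, *Pdgfc* rose 3.73-fold (1.25 on the log2 scale, with a standard error of 0.20, adjusted p = 0.0017 by limma), a call that held with each of the 4 libraries left out. *Gm16000*, annotated as a processed transcript, overlaps *Pdgfc* over 3030 bases on the opposite strand.

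*Pdgfd* encodes a beta receptor ligand that is likewise activated by cleavage (NCBI gene 71785; mm9 chromosome 9, 6168612 to 6378843, plus strand). Its FPKM was 3.71 and 5.34 (WT sham), 4.14 and 5.25 (WT MI) and 3.63 and 5.81 (*Card9* KO MI). All groups overlapped, since the libraries of a group differed by 1.27-fold to 1.6-fold while the group means stayed between 4.53 and 4.72. No comparison was called by limma, and the 95% confidence intervals of the log2 fold change ran from −0.52 to 0.62 in WT MI against WT sham, from −0.58 to 0.56 in *Card9* KO MI against WT MI, and from −0.53 to 0.61 in *Card9* KO MI against WT sham. The protein-coding gene *Ddi1* overlaps *Pdgfd* over 1520 bases on the opposite strand.

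*Pdgfra* encodes the alpha receptor (NCBI gene 18595; mm9 chromosome 5, 75548316 to 75594229, plus strand). Its FPKM was 7.25 and 8.15 (WT sham), 15.2 and 15.87 (WT MI) and 10.64 and 10.43 (*Card9* KO MI). The groups were apart, with *Card9* KO MI between WT sham and WT MI. *Pdgfra* rose 2.02-fold in WT MI (0.93 on the log2 scale, with a standard error of 0.13, adjusted p = 0.0012 by limma), and that call held under every alternative scaling, filter and pseudocount and after the removal of any 1 of the 4 libraries. It lay in *Card9* KO MI 32.2% below WT MI, just short of the threshold (log2 fold change −0.52, 95% confidence interval −0.81 to −0.23, unadjusted p = 0.0037, adjusted p = 0.094 by limma). Over the alternatives that adjusted p ran from 0.067 to 0.32. *Card9* KO MI was 1.37-fold above WT sham (log2 fold change 0.41, adjusted p = 0.029 by limma). That call was lost without WT sham replicate 1 (log2 fold change 0.33), *Card9* KO MI replicate 1 (0.40) or *Card9* KO MI replicate 2 (0.42). It was also lost under the 3 other scalings (adjusted p of 0.14 to 0.66 by limma) and with only the 2 groups compared (0.056).

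*Pdgfrb* encodes the beta receptor (NCBI gene 18596; mm9 chromosome 18, 61204804 to 61244715, plus strand). Its FPKM was 20.69 and 21.52 (WT sham), 31.86 and 30.57 (WT MI) and 47.48 and 43.13 (*Card9* KO MI). The groups did not overlap, with WT sham lowest and *Card9* KO MI highest, and no group's libraries differed by more than 10.1%. Over WT sham, *Pdgfrb* rose 1.48-fold in WT MI (0.54 on the log2 scale, with a standard error of 0.10, adjusted p = 0.0053 by limma) and 2.15-fold in *Card9* KO MI (1.07 on the log2 scale, with a standard error of 0.10, adjusted p = 0.00015 by limma). Both calls held under the alternative scalings, filters and pseudocounts and without each of the libraries compared. *Card9* KO MI lay 1.45-fold above WT MI, which missed the threshold narrowly (log2 fold change 0.52, 95% confidence interval 0.28 to 0.76, unadjusted p = 0.0011, adjusted p = 0.059 by limma). Over the alternatives the adjusted p of that difference ran from 0.043, with a mean FPKM of at least 5 required, to 0.29, without WT MI replicate 1.

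**Figure D2:**
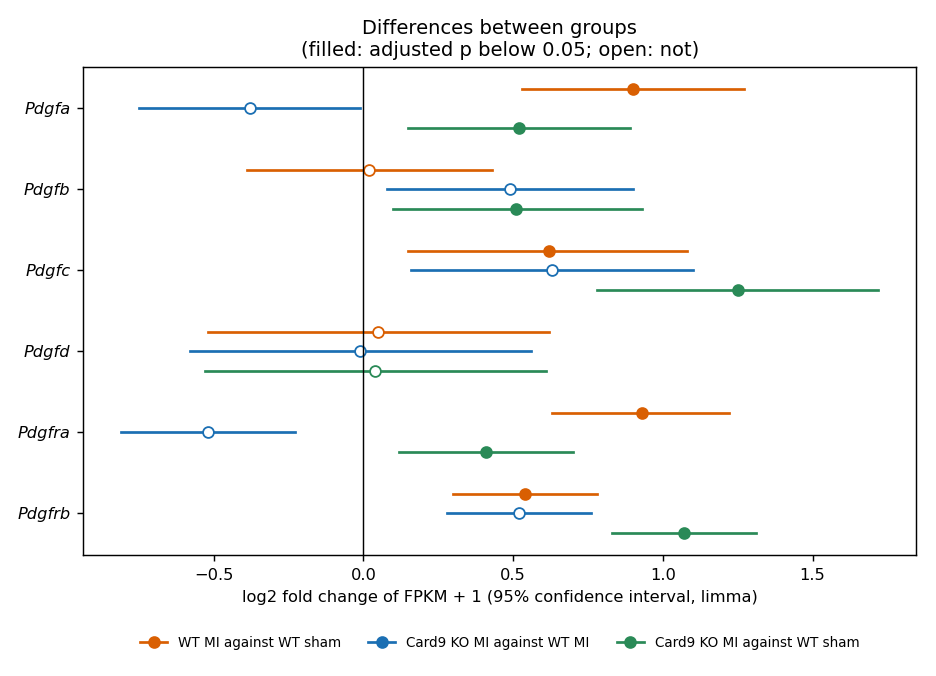
Log2 fold change of FPKM + 1 (horizontal axis) with its 95% confidence interval from limma for the 6 genes in the 3 comparisons, filled where the adjusted p was below 0.05. In *Card9* KO MI against WT MI every point is open; *Pdgfra* lies at −0.52 and *Pdgfrb* at 0.52, while both lie above 0 in the comparisons with WT sham.

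Read over the family, WT MI was called above WT sham in 4 of the 6 genes and below it in 0 (limma). Of all genes tested 27.7% were called higher and 9.39% lower, 37.1% in all. An unadjusted p below 0.05 was reached by 4 of the 6 (46.8% of all genes). The libraries of the groups did not overlap in 4 genes, all higher in WT MI, against 48.3% of all genes higher and 22.1% lower, 70.4% in all. The median log2 fold change was 0.58 for the 6 genes and 0.19 for all genes tested. Between *Card9* KO MI and WT MI, limma called 0 of the 6 (1.40% of all genes, 0.816% higher and 0.587% lower), 5 had an unadjusted p below 0.05 (20.0% of all genes), and 5 did not overlap, 3 higher and 2 lower (52.7% of all genes, as 30.8% higher and 21.9% lower in Card9 KO MI). The median log2 fold change was 0.24 for the 6 genes and 0.04 for all. For *Card9* KO MI over WT sham, 5 were called higher and 0 lower (34.8% and 14.3% of all genes, 49.1% in all), 5 had an unadjusted p below 0.05 (56.1%), and 5 did not overlap, all higher (51.6% of all genes higher and 24.5% lower, 76.1% in all). The median was 0.52 against 0.24 over all genes. The number called was 3 without WT sham replicate 2, 2 with *Card9* KO MI replicate 1 left out and 3 with *Card9* KO MI replicate 2 left out. The comparisons share groups and are not independent of each other. A screen of the kind the study used, with at least 2-fold in mean FPKM and a diverge probability of at least 0.8, passed none of the 6 genes between WT MI and WT sham (6.97% of listed genes passed) or between the infarct groups (1.06%), and *Pdgfrb* alone between *Card9* KO MI and WT sham (10.5%).

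Ratios within a library do not change when all its values are divided by the same factor, but quantile normalization can change them. *Pdgfrb* over *Pdgfra* was 2.85 and 2.64 (WT sham), 2.1 and 1.93 (WT MI) and 4.46 and 4.14 (*Card9* KO MI). WT MI was thus lowest and *Card9* KO MI highest, with no overlap, and the mean ratio in *Card9* KO MI was 4.3 ± 0.231 against 2.01 ± 0.12 in WT MI (SD, n = 2). The summed FPKM of both receptor genes was 27.9 and 29.7 (WT sham), 47.1 and 46.4 (WT MI) and 58.1 and 53.6 (*Card9* KO MI).

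Among the ligands, *Pdgfb* made up 65.4% and 55.3% (WT sham), 48.3% and 48.2% (WT MI) and 58.9% and 60.3% (*Card9* KO MI) of the summed ligand FPKM. The share of *Pdgfa* was 23.2% and 23.5%, 38.1% and 34.8%, and 26.1% and 21.6% in the same order, so that WT MI stood apart from both other groups. *Pdgfc* took 2.02% and 3.92% (WT sham), 4.47% and 4.82% (WT MI) and 7.89% and 6.78% (*Card9* KO MI), without overlap between groups. *Pdgfa* and its receptor gene *Pdgfra* had a ratio, 1.26 and 0.89 (WT sham), 1.14 and 0.945 (WT MI) and 1.24 and 1.07 (*Card9* KO MI), with overlapping groups.

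**Figure D3:**
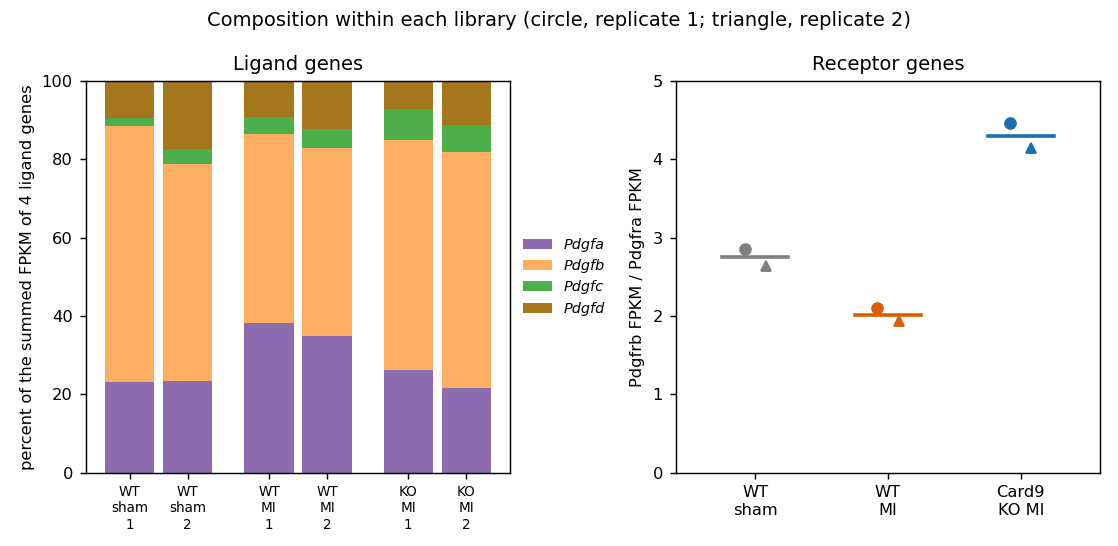
Left, percent of the summed FPKM of the 4 ligand genes taken by each in the 6 libraries. Right, the ratio of *Pdgfrb* to *Pdgfra* FPKM per library (circle, replicate 1; triangle, replicate 2) with the group mean as a line, which is 2.75 for WT sham, 2.01 for WT MI and 4.3 for *Card9* KO MI.

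The sequence before the annotated start is shown for *Pdgfc*, the gene with the largest fold over WT sham, and for *Pdgfa*, which rose in WT MI. It is also shown for *Pdgfra*, the receptor gene whose own FPKM was higher in WT MI than in the other groups. RefSeq windows of assembly GRCm38.p6 were found for 4 of the 6 genes (*Pdgfa*, *Pdgfc*, *Pdgfd* and *Pdgfra*; *Pdgfb* and *Pdgfrb* are only named), and the 250 bases before the start are given 5′ to 3′ on the gene's strand. The windows are *Pdgfc* chr3:81036166-81036415 (plus strand), the more distal of 2 starts of *Pdgfa* chr5:138994945-138995194 (minus strand) and *Pdgfra* chr5:75152001-75152250 (plus strand). Capitals mark matches, on either strand, to 7 motifs, namely GGGCGG (the GC box), CCAAT (the CCAAT box), TATAAA (the TATA box), GCGNGGGCG (bound by EGR factors), TGANTCA (bound by AP-1), the CArG box bound by serum response factor, and the NF-kB consensus.
Pdgfc: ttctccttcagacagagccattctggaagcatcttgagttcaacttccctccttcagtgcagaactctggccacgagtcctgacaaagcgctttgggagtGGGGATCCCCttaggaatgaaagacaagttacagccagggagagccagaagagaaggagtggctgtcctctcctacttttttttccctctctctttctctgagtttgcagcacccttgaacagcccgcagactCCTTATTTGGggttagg
Pdgfa: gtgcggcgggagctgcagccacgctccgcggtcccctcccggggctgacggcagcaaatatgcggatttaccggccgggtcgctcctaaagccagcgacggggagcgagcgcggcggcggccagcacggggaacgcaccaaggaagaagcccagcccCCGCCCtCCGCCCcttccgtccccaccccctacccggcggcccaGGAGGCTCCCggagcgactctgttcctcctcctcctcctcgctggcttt
Pdgfra: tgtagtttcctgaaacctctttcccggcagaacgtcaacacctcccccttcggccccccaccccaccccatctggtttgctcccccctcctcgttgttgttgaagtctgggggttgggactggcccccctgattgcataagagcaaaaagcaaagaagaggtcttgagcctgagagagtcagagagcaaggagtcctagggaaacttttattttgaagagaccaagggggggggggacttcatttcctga
The *Pdgfc* window holds a CArG box 8 to 17 bases before the start, a motif found in 1.47% of 32851 RefSeq windows of this length, and an NF-kB consensus match 141 to 150 bases before it (5.0% of windows). The *Pdgfa* window shown holds GGGCGG at 2 places (32.7% of windows have it) and an NF-kB consensus match 40 to 49 bases before the start. Of all its 250 bases 72.4% are G or C. The window of the other *Pdgfa* start, not shown, holds GGGCGG 55 to 60 bases before that start and no other match. The *Pdgfra* window matched none of the 7 motifs. These are matches of letters only. No binding was measured, and a missing match says only that the letters are not in this window.

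The extracellular genes that process or bind PDGF ligands had the highest median change of the 7 pathway lists in WT MI over WT sham. Of 11 tested genes of the list, 7 rose and 1 fell by limma, beside 27.7% higher and 9.39% lower of all genes. The median log2 fold change was 0.86 against 0.19 over all genes. *Thbs1*, which encodes thrombospondin-1, rose by a log2 fold change of 3.04 in WT MI over WT sham (adjusted p = 2.3e-05 by limma) and *Plau*, the urokinase gene, by 2.24. *Plat*, whose product tPA cleaves PDGF-CC, went up from 7.91 and 8.51 to 17.6 and 13.92 (by 0.86 on the log2 scale, adjusted p = 0.0029), and *Furin*, a convertase of PDGF-A and PDGF-B, from 33.32 and 40.56 to 59.87 and 52.09 (0.59, adjusted p = 0.0084). The convertase gene *Pcsk6* fell by 0.74 on the log2 scale (adjusted p = 0.011), and the call was lost without WT sham replicate 2 (0.059) or WT MI replicate 1 (0.068). *Plat* and *Furin* are members of the list that were named for their known action on PDGF after their values were seen. *Plg*, the plasminogen gene, was listed in no library.

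Between the infarct groups, *Sparc* was the 1 of 11 tested genes called on this list, beside 1.40% of all genes. *Sparc* encodes a matrix protein that binds PDGF-B, and its FPKM was 212.9 and 176.69 (WT sham), 616.96 and 691.33 (WT MI) and 1147.72 and 1048.67 (*Card9* KO MI). The infarct groups did not overlap (log2 fold change 0.75, standard error 0.12, adjusted p = 0.037 by limma). With all 6 libraries kept, the call was lost with a pseudocount of 0.1 (0.052), no filter (0.1) or only the 2 groups compared (0.053). It was also lost without the trend in the fit (0.11) or with a replicate block (0.067). With any library of these groups left out the call was lost too, at log2 fold changes of 0.67 to 0.83. Against WT sham, 8 of the 11 tested genes of the list rose and 1 fell in *Card9* KO MI, beside 34.8% and 14.3% of all genes. *Thbs1* (log2 fold change 3.3) and *Sparc* (2.49) were among those that rose.

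Of 16 receptor brakes, genes for ubiquitin ligases, phosphatases and feedback inhibitors, 9 rose and 0 fell in WT MI over WT sham (limma, median 0.58). Of all genes, 27.7% were called higher and 9.39% lower, with a median of 0.19. In *Card9* KO MI over WT sham 11 of the brakes rose and 0 fell (median 0.75 against 0.24), beside 34.8% and 14.3% of all genes. With quantile normalization the counts in that comparison were 7 and 1. The largest rises in WT MI were those of *Socs3*, a feedback inhibitor of JAK-STAT signaling (4.94 and 3.11 against 26.66 and 19.66, log2 fold change 2.27), *Ptpn6*, the phosphatase SHP-1 of blood cells (log2 fold change 1.78), and *Ptpn1*, the phosphatase PTP1B (1.37). The count of brakes that rose in WT MI was 4 without WT sham replicate 2 or without WT MI replicate 2, and 6 and 4 with upper-quartile scaling and quantile normalization. Of 26 tested adaptors and enzymes that bind the receptors, 5 rose and 2 fell in WT MI, beside 27.7% and 9.39% of all genes (median 0.17 against 0.19 over all genes). Among them *Shc1*, an adaptor to Ras (log2 fold change 0.82), *Stat3* (0.69) and *Rasa1*, a brake of Ras (0.49), rose, and *Ptpn11*, the phosphatase SHP-2 (−0.39), and *Stat5b* (−0.33) fell. Under each of the 3 other scalings 2 of the 26 rose and 5 fell. Without WT sham replicate 2 the counts were 3 and 0, and without the others 2 and at most 1. Of 17 kinases and G proteins of the Ras-MAPK and PI3K-Akt routes, 4 were called higher and 0 lower, beside 27.7% and 9.39% of all genes. The median was 0.1 against 0.19 over all genes. Those called higher included *Nras* (0.72), *Mapk3* (0.65) and *Map2k1* (0.56). With upper-quartile scaling or quantile normalization 3 rose and 4 fell. With scaling without the 100 most abundant genes 3 rose and 3 fell. Fewer rose with any library of these groups left out.

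The immediate early genes, which growth factors induce within minutes in cultured cells, moved both ways. In WT MI, 8 of 15 rose and 2 fell (limma, median 0.56), beside 27.7% and 9.39% of all genes (median 0.19). *Fosl1* went from 0.56 and 0.58 up to 6.99 and 6.14 (2.27 on the log2 scale), *Myc* from 4.74 and 3.43 to 21.49 and 21.35 (2.15) and *Ier3* by 2.03 on the log2 scale. *Egr1*, at 87.07 and 60.3 in WT sham, fell to 29.6 and 40.97 (by 1.04 on the log2 scale, adjusted p = 0.0055), and *Jun* had a log2 fold change of −0.45 that was not called without WT sham replicate 1 (adjusted p = 0.16), WT MI replicate 1 (0.12) or WT MI replicate 2 (0.12). With upper-quartile scaling or quantile normalization 7 rose and 5 fell, and without WT MI replicate 1 the counts were 6 and 1. For *Card9* KO MI over WT sham 8 rose and 2 fell, beside 34.8% and 14.3% of all genes. Among them were *Egr2* (log2 fold change 2.5), *Egr1* (−0.98) and *Srf*, the gene of serum response factor (−0.42). The *Srf* call was lost without WT sham replicate 1, where its log2 fold change was −0.36.

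Between *Card9* KO MI and WT MI, limma called 0 of the receptor brakes, adaptors, kinases and immediate early genes, beside 1.40% of all genes. Their medians were 0.17, 0.17, 0.10 and 0.16, against 0.04 over all genes. Among the immediate early genes 1 was called with quantile normalization or a mean FPKM of at least 5, and 2 with a pseudocount of 5 or with genes listed in all 6 libraries.

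Relatives of the family rose or fell by gene. Of all genes, limma called 27.7% higher and 9.39% lower in WT MI over WT sham. Of 6 tested genes for the other class III receptors and their ligands, 3 rose in WT MI: *Kit* (1.51 and 2.01 in WT sham against 5.52 and 3.93, log2 fold change 1.04), *Csf1r*, the receptor of macrophage colony-stimulating factor (1.03), and its ligand gene *Csf1* (0.50). The count was 1 without WT MI replicate 1. Between the infarct groups 0 were called (limma), or 1 with a pseudocount of 5, a mean FPKM of at least 5, quantile normalization or genes listed in all 6 libraries. Of 8 genes of the VEGF branch, whose ligands share the cystine-knot fold with PDGF, 3 rose in WT MI: *Pgf*, the placental growth factor (2.57), *Vegfd* (1.08) and *Flt4* (0.61). The 3 that fell were *Vegfb* (−0.79), *Vegfa* (−0.69) and *Kdr* (−0.68). Without WT MI replicate 2 only 1 of the 8 rose. *Pgf* was the 1 gene of this branch called between the infarct groups, beside 1.40% of all genes. Its FPKM was 3.03 and 2.63 (WT sham), 23.1 and 20.31 (WT MI) and 11.69 and 9.08 (*Card9* KO MI), so that it fell by 1.0 on the log2 scale from WT MI to *Card9* KO MI (standard error 0.16, adjusted p = 0.039 by limma). With all 6 libraries kept, that call was lost with a pseudocount of 0.1 (adjusted p = 0.056 by limma), no filter (0.1) or only the 2 groups compared (0.054). It was also lost without the trend in the fit (0.077). With any library of these groups left out the call was lost too, at log2 fold changes of −1.17 to −0.84.

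Of the 29 pathway genes named for WT MI against WT sham by a rule on the largest called changes, 18 were called under each alternative with its own p-value in which they were tested, and 11 were not. With a mean FPKM of at least 5 required, *Fosl1*, counted among the 18, was not tested. Without WT sham replicate 1 the calls of *Rasa1*, *Stat5b*, *Mapk3*, *Jun* and *Flt4* were lost, and without WT sham replicate 2 those of *Pcsk6*, *Ptpn11*, *Stat5b*, *Csf1* and *Vegfd*. Without WT MI replicate 1 the calls of *Pcsk6*, *Rasa1*, *Ptpn11*, *Stat5b*, *Mapk3*, *Map2k1*, *Jun*, *Kit*, *Csf1* and *Flt4* were lost, and without WT MI replicate 2 those of *Rasa1*, *Ptpn11*, *Stat5b*, *Jun*, *Csf1*, *Vegfd* and *Flt4*. The adjusted p of these lost calls ran from 0.056 to 0.18.

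**Figure D4:**
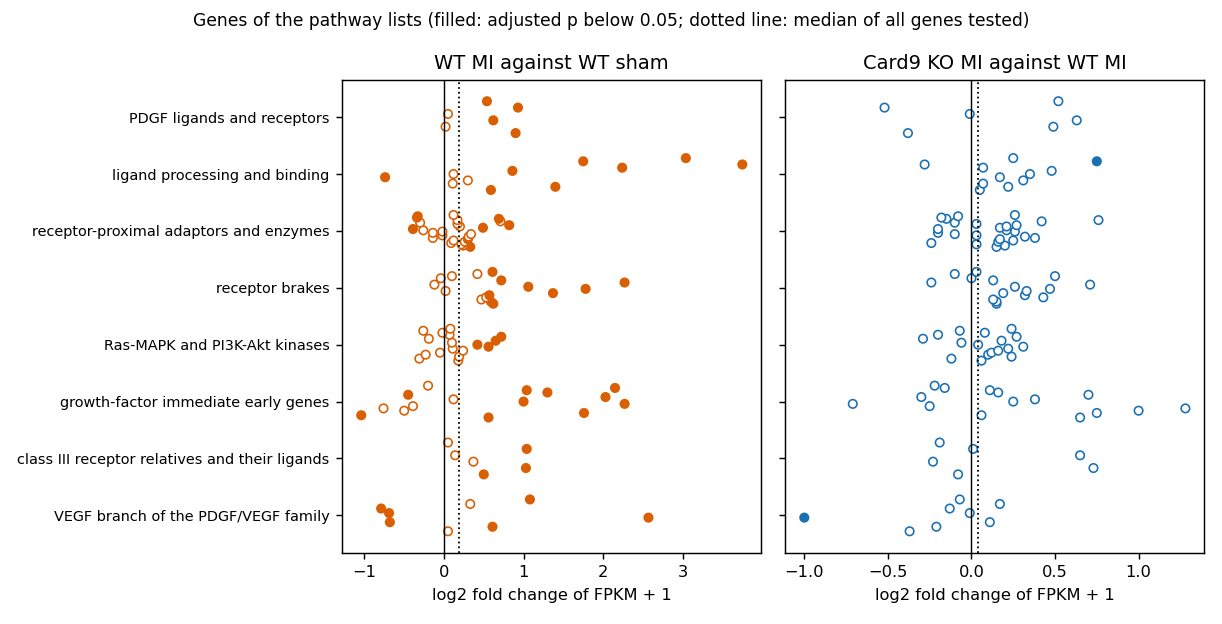
Log2 fold change of FPKM + 1 (horizontal axis) of each tested gene of the PDGF family and of 7 pathway lists in WT MI against WT sham (left) and *Card9* KO MI against WT MI (right), filled where limma's adjusted p was below 0.05. The dotted line is the median of all genes tested, 0.19 on the left and 0.04 on the right, where *Sparc* at 0.75 and *Pgf* at −1.0 are the filled points.

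Markers of the cells that carry the receptors moved unevenly beside them. In WT MI over WT sham, limma called 27.7% of all genes higher and 9.39% lower, with a median log2 fold change of 0.19. Of 8 pericyte markers, 1 rose and 4 fell in WT MI over WT sham (limma; median −0.52), while *Pdgfrb* rose. Their summed FPKM was 273 and 297 (WT sham), 250 and 228 (WT MI) and 253 and 259 (*Card9* KO MI). *Rgs5*, the most abundant, fell from 115.81 and 123.36 to 81.24 and 78.33, *Kcnj8*, *Abcc9* and *Vtn* fell as well, and *Mcam*, which endothelial cells also express, rose. *Cspg4* (log2 fold change 0.57), *Notch3* (0.24) and *Higd1b* (−0.58) were not called. In *Card9* KO MI over WT sham 3 of the 8 rose and 4 fell by limma, beside 34.8% and 14.3% of all genes. Those that rose were *Mcam* (log2 fold change 1.84), *Cspg4* (1.02) and *Notch3* (0.58), as *Pdgfrb* did. The number that fell was 3, 2, 2 and 2 with WT sham replicate 1 or 2 or WT MI replicate 1 or 2 left out. None of the 8 was called between the infarct groups (limma), beside 1.40% of all genes. No marker of this list was at 0 in any library.

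Of 6 smooth muscle markers, 3 rose and 0 fell in WT MI over WT sham (limma, median 0.43), beside 27.7% and 9.39% of all genes. The 3 were *Acta2*, *Tagln* and *Cnn1*. *Myh11*, *Smtn* and *Lmod1* were not called, with log2 fold changes of −0.02, −0.23 and 0.01, and 1 marker was called lower under each of the 3 other scalings. The 6 genes summed to an FPKM of 127 and 153 (WT sham), 227 and 216 (WT MI) and 467 and 441 (*Card9* KO MI). Between the infarct groups 2 rose and 0 fell by limma, beside 0.816% and 0.587% of all genes, and the median was 0.85. They were *Acta2* (117.28 and 97.16 against 252.13 and 239.14, a log2 difference of 1.19, adjusted p = 0.039) and *Tagln* (1.47, adjusted p = 0.0068), genes that activated fibroblasts also express. The count was 0 without WT MI replicate 1 or *Card9* KO MI replicate 1, and 1 without either of the others. *Myh11*, a marker more restricted to smooth muscle, was at 5.11 and 5.21 (WT MI) against 7.44 and 10.8 (*Card9* KO MI; a log2 difference of 0.70, adjusted p = 0.11, not called).

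The 12 fibroblast markers summed to 1153 and 1157 (WT sham), 2116 and 2675 (WT MI) and 3799 and 3744 (*Card9* KO MI). Most of the rise of this sum between the infarct groups lay in *Col1a1*, *Col1a2*, *Col3a1* and *Postn*. *Postn* alone went from 183.74 and 240.89 to 625.98 and 627.0. In WT MI over WT sham 8 rose and 2 fell, beside 27.7% and 9.39% of all genes. Between the infarct groups 4 rose, *Col1a1* (log2 fold change 1.06), *Col1a2* (1.09), *Postn* (1.57) and *Mfap4* (1.43), and *Gsn* fell (−0.57), while *Pdgfra* lay lower and was not called. Of all genes, 0.816% were called higher and 0.587% lower between these groups. None of the 12 was called without WT MI replicate 1 or either *Card9* KO MI replicate, while 3 rose without WT MI replicate 2. *Dcn*, a general fibroblast marker, was at 296.75 and 385.71 (WT MI) against 297.49 and 309.52 (*Card9* KO MI; a log2 difference of −0.16, adjusted p = 0.54), and *Tcf21*, a marker of resting cardiac fibroblasts, at 5.04 and 7.88 against 12.13 and 8.69 (0.62, adjusted p = 0.20). The part of pericytes, smooth muscle cells and fibroblasts in the receptor values was not tested.

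Other cells that may add to the ligand values moved with the infarct too. Of all genes, limma called 27.7% higher and 9.39% lower in WT MI over WT sham. In *Card9* KO MI over WT sham the shares were 34.8% and 14.3%. All 12 macrophage markers rose in WT MI over WT sham, with sums of 420 and 358 (WT sham), 1464 and 1864 (WT MI) and 2973 and 2153 (*Card9* KO MI) and *Lyz2* the most abundant. Between the infarct groups 0 of the macrophage markers were called (limma), beside 1.40% of all genes. The count was 2 with quantile normalization, 3 with a pseudocount of 5 and 4 with a mean FPKM of at least 5 or genes listed in all 6 libraries. The 6 neutrophil markers that could be tested rose in WT MI, with sums of 7.64 and 5.4, 212 and 92.9, and 59.8 and 46.7 in the same order, and *Ly6g* was listed in no library. Against WT sham, 7 of 10 cardiomyocyte markers fell in WT MI and all 10 in *Card9* KO MI, with sums from 47820 and 49050 in WT sham to 31130 and 31720 and to 25950 and 30050. The count of 7 was 4 without WT sham replicate 2, WT MI replicate 1 or WT MI replicate 2. All 8 proliferation genes rose in both infarct groups over WT sham. *Tbx18* was the 1 of 3 tested epicardial markers that rose in WT MI, and 0 of 2 tested adipocyte markers were called (limma). The sums were 3.36 to 16.0 for adipocyte and 8.19 to 11.2 for epicardial markers in WT MI. The part of these cells in the PDGF values was not tested.

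**Figure D5:**
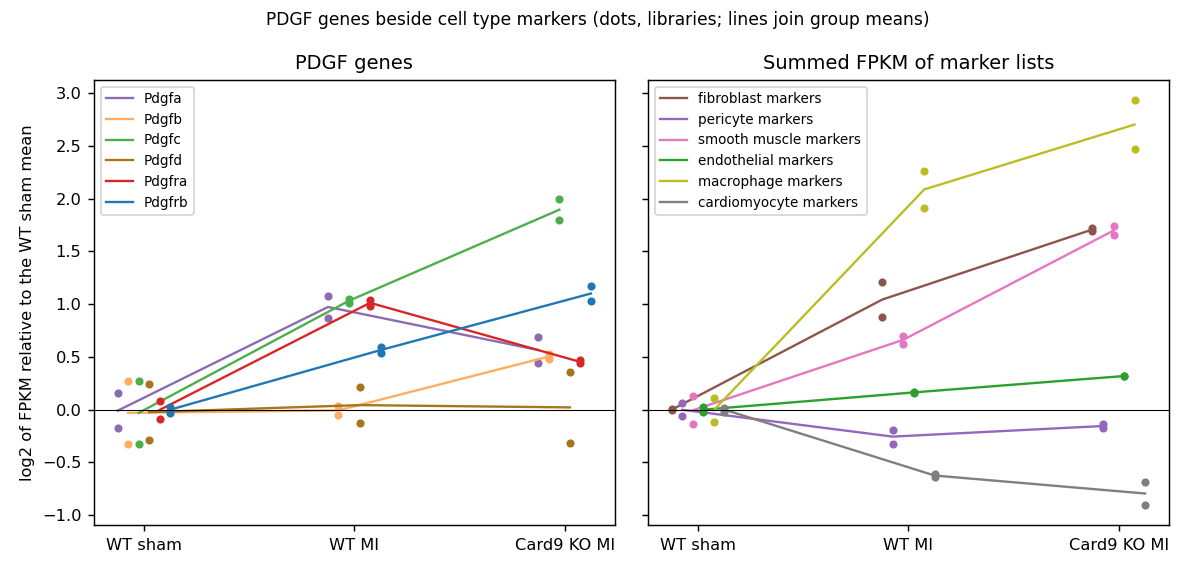
Log2 of FPKM relative to the WT sham mean (vertical axis) for the 6 PDGF genes (left) and for the summed FPKM of 6 marker lists (right), with a dot for each library and lines through the group means. *Pdgfra* turns down from WT MI to *Card9* KO MI while the sum of the fibroblast markers goes on from 2116 and 2675 to 3799 and 3744. Most of that rise lies in *Col1a1*, *Col1a2*, *Col3a1* and *Postn*. In the infarct groups the sum of the pericyte markers lies below the WT sham mean while *Pdgfrb* lies above it. Of the single pericyte markers, *Cspg4*, *Notch3* and *Mcam* lie above their WT sham means in *Card9* KO MI.

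Genes with a pattern over the 6 libraries most like that of each PDGF gene were ranked by Pearson's r of log2(FPKM + 1) among 8786 genes with a mean FPKM of at least 5. With so many genes and 6 libraries in 3 groups, high values are common, and they are given as a description only. *Pdgfrb* was followed most closely by *Hnrnph1* (r = 0.9998), *Unc5b* (0.9980) and *Arhgef40* (0.9969). *Pdgfra* was followed by *Arid5b* (0.9920), *Utp6* (0.9911) and *Fdps* (0.9872), and *Pdgfa* by *Trmt6* (0.9973), *Bop1* (0.9965) and *Etf1* (0.9897). For *Pdgfc* these were *Rnf181* (0.9985), *Ube4b* (0.9972) and *Ctnnd1* (0.9971), for *Pdgfb* *Hes1* (0.9862), *Usp21* (0.9807) and *Rab33b* (0.9797), and for *Pdgfd*, which varied within groups, *Rnf31* (0.9633), *Tmem100* (0.9598) and *Naa80* (0.9380).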

How the data were processed

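RNA of mouse heart tissue was sequenced in 6 libraries, 2 for each of 3 groups taken from the labels. The authors enriched poly(A) RNA, prepared TruSeq libraries, ran them on a HiSeq sequencer, used mm9, BWA and Bowtie2 (named without roles in the submitters' processing notes), and deposited FPKM values with 2 decimals for genes above 0. Genes not listed were taken as 0. The annotation and the use of strand are not given in the sources used here. NCBI gene numbers were matched to symbols for 17390 of 17441 genes through a table of GRCm38.p6, and mm9 positions came from GENCODE. Because only 62.2% to 66.7% of low values came out as whole fragments (within 0.1) at the estimated depths, counts were not rebuilt, and depths cover counting error only.

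limma 3.58.1 in R 4.3.3 (lmFit, and eBayes with trend = TRUE) was fitted to log2(FPKM + 1) without covariates and was tested on simulated data. The study's own screen gives no p-value, so it served as an alternative. The others were other pseudocounts (0.1 and 5), other filters (none, and a mean FPKM of 5), 3 other scalings, a fit of the 2 groups alone, eBayes with no trend, a replicate block, only genes listed in all 6 libraries, an added fold change of at least 2, and each library left out. Tables and figures were made with Python 3.11.15, pandas 2.3.3 and numpy 2.4.6. All 6 PDGF genes were named, and from 7 pathway lists up to 3 genes with the largest called, non-overlapping changes in each direction and comparison, not all of which are described (1 is not reported here), with 3 genes of most similar pattern per PDGF gene. Members of 11 marker lists were named beside the results they move with. The genes, lists and alternatives were chosen with earlier results of these data known.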

Additional observations from a re-analysis of the deposited data

How the results depend on the processing

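*Pdgfa*, *Pdgfra* and *Pdgfrb* in WT MI over WT sham and *Pdgfc* and *Pdgfrb* in *Card9* KO MI over WT sham kept their calls under each alternative with a p-value in which they were tested, apart from the added fold of at least 2. *Pdgfc* was not tested with a mean FPKM of at least 5 required. In WT MI over WT sham, 0 of the 6 genes were called with a fold change of at least 2 required, and 0 by the screen. In *Card9* KO MI over WT MI, 1 gene, *Pdgfrb*, was called with a pseudocount of 5, a mean FPKM of at least 5, quantile normalization or only genes listed in all 6 libraries. In *Card9* KO MI over WT sham the count of 5 was 3 with no filter or with only the 2 groups compared, 2 under each of the 3 other scalings (upper-quartile, quantile, and one that leaves out the 100 most abundant genes) or with an added fold change of at least 2, and 1 by the screen. It was 2 to 4 with a library left out. The median log2 fold change of all genes in WT MI over WT sham was 0.19 as deposited and −0.09 with quantile normalization. Uncalled values changed sign. *Pdgfb* in WT MI over WT sham (0.02) was −0.18 under both upper-quartile and quantile scaling, −0.12 without the 100 most abundant genes, −0.01 by the screen's means, and −0.26 to 0.31 with a library left out. *Pdgfd* in the same comparison (0.05) was −0.13, −0.26 and −0.07 under these scalings and −0.16 to 0.27 with a library left out, and in *Card9* KO MI over WT sham (0.04) −0.17, −0.38, −0.10 and −0.24 to 0.32. In *Card9* KO MI over WT MI it was 0.01 by the screen's means and −0.29 to 0.26 with a library left out. The cause was not tested, and fewer samples are part of each left-out fit. Over all genes, *Card9* KO MI against WT MI gave 107 higher and 77 lower, 7 and 5 with no filter, 40 and 18 without trend, and 3 to 11 and 5 to 9 with a library left out.

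The labels do not say whether libraries with the same replicate number share anything. The correlations of the replicate differences over 13120 genes were 0.00244, −0.00828 and 0.0204, which cannot show whether a shared step touched some genes. With the replicate block, 3, 0 and 5 of the 6 genes were called in WT MI over WT sham, *Card9* KO MI over WT MI and *Card9* KO MI over WT sham, against 4, 0 and 5 without it. *Pdgfc* in WT MI over WT sham was the gene not called with the block (adjusted p = 0.064), and over all genes *Card9* KO MI against WT MI gave 45 higher and 26 lower. Depth limits *Pdgfc* in WT sham most, at an estimated 8.9 and 12.9 fragments.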
